A study of Mus musculus with 23 samples.

Results

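The immune checkpoint ligands and receptors described here are the 10 genes Cd274, Pdcd1lg2, Cd276, Cd80, Cd86, Havcr2, Pdcd1, Ctla4, Lag3 and Tigit, taken by gene symbol from 47643 genes measured in 23 mouse mammary tumors. All mice were female and carried the polyoma virus middle T oncogene (PyMT), which drives mammary carcinoma, on a C57BL/6 background. In the neutralization experiment, WT mice received a human IgG1 isotype control (IgG, 5 libraries) or an antibody against the cytokine IL-38 made in-house (anti-IL-38, 6 libraries). Treatment began when a first tumor measured 0.6 cm and was given weekly over 5 weeks. In the second experiment, started at week 13 of age and also lasting 5 weeks, WT mice received Armenian hamster IgG (WT_IgG, 4 libraries), and mice without a functional IL-38 gene received the same IgG (KO_IgG, 4 libraries) or an antibody that blocks the γδ T cell receptor (KO_gdTCR, 4 libraries). There was no WT group with γδ TCR blockade among these libraries, the knockout affects every cell of the mouse, and each library was made from bulk tumor RNA. The labels do not say whether each library came from a separate mouse, so p-values measure only the spread between these libraries, which may be technical.

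Checkpoint proteins set how strongly T cells respond. PD-L1 (Cd274) and PD-L2 (Pdcd1lg2), found on tumor, myeloid and other cells, engage PD-1 (Pdcd1) on T cells and dampen T cell receptor signaling, and interferon-γ is a main inducer of PD-L1. CD80 and CD86 on antigen-presenting cells bind either the activating receptor CD28 or the inhibitory receptor CTLA-4 (Ctla4), and CD276 is a related B7 family protein found on many carcinomas and on stromal cells. LAG-3, TIGIT and TIM-3 (Havcr2) are further inhibitory receptors, of which TIM-3 is also carried by dendritic cells and macrophages.

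The libraries held 6273049 to 15879164 reads on genes, so that a gene without a read is bounded at 0.189 to 0.478 counts per 1000000 reads (CPM), for counting error only. The deleted gene, Il1f10, had 0 reads in all 23 libraries and cannot check the genotype labels. Epcam, the first of the epithelial markers, was at 219.6 to 1045 CPM. The 4 KO_gdTCR libraries and KO_IgG replicate 4 stood apart from the other 18. Processed pseudogenes took 1.31% to 1.98% of their reads against 0.0943% to 0.191%, the ribosomal RNA-like transcript Gm42418 took 11.3% to 20.1% against 2.62% to 5.70%, and they had the fewest reads. Differences of the members that rest on KO_IgG are therefore given with and without its replicate 4. In a comparison of KO_gdTCR with KO_IgG replicates 1 to 3, these library properties and the treatment cannot be told apart. With all KO_IgG libraries the properties and the treatment still cannot be fully told apart, since of KO_IgG only replicate 4 shares them.

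Cd274 and Pdcd1lg2 are neighboring protein-coding genes on chromosome 19 in the same orientation, with 0 RefSeq genes lying wholly between them. Their promoters are shown because both ligands are described together below. The windows run from 250 bases before to 50 after the annotated start on the RefSeq assembly GRCm38.p6, plus strand, at chr19:29367188-29367487 for Cd274 and chr19:29410669-29410968 for Pdcd1lg2. Capitals mark a match on either strand to GAAANNGAA, a spacing bound by interferon regulatory factors, to TTCNNNGAA, bound by STAT factors, or to TGANTCA, bound by AP-1.
Cd274: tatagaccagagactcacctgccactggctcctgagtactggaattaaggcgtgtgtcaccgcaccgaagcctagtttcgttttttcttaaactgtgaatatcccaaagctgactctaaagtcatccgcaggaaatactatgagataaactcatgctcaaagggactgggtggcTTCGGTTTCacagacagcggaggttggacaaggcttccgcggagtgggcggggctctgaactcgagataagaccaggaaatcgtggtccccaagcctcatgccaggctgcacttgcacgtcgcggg
Pdcd1lg2: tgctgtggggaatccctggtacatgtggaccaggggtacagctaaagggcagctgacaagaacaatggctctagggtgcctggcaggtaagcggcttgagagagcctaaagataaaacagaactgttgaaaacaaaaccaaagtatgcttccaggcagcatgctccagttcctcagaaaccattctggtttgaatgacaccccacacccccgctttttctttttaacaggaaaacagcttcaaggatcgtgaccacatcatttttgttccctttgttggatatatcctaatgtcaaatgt
The Cd274 window held 1 match, to GAAANNGAA on the minus strand, which begins 76 bases before the start, and the Pdcd1lg2 window held none of the 3 motifs. GAAANNGAA occurred in 8.56% of all 32851 promoter windows, TTCNNNGAA in 8.30% and TGANTCA in 7.81%. Of the 8 members with a promoter in the table, Ctla4 also matched GAAANNGAA, and Havcr2 and Cd80 matched TGANTCA.

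Cd274 was highest in IgG tumors of the neutralization experiment and lowest under γδ TCR blockade. Its level was 48.1, 38.5, 36.3, 37.2 and 50.6 CPM in IgG replicates 1 to 5, with a mean of 42.1 ± 6.68 (SD, n = 5). The 6 anti-IL-38 libraries ranged from 24.2 to 39.2 CPM with a median of 25.5, and the mean was 29.1 ± 6.52. Of these, replicates 5 and 6 lay closest to the IgG libraries, and the other 4 lay together near the lower end. In the second experiment Cd274 was at 37.5, 35.8, 33.3 and 23.1 CPM in WT_IgG and at 23.9, 23.3, 31.7 and 4.29 CPM in KO_IgG replicates 1 to 4. KO_IgG replicate 4 was therefore far below its group, whose mean was 20.8 ± 11.6 CPM with it (n = 4) and 26.3 ± 4.69 without it (n = 3). The KO_gdTCR libraries were at 5.37, 9.11, 2.55 and 5.00 CPM. KO_IgG replicate 4 thus lay within the range of KO_gdTCR, and these 5 libraries were below the other 18.

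The order of the Cd274 means was IgG, WT_IgG, anti-IL-38, KO_IgG and KO_gdTCR, with or without KO_IgG replicate 4. The difference between WT_IgG and anti-IL-38, and that between anti-IL-38 and KO_IgG, was within 1 SD. The ranges of neighboring groups overlapped throughout, except that KO_gdTCR lay wholly below KO_IgG replicates 1 to 3, at a ratio of means of 4.77.

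**Figure D1:**
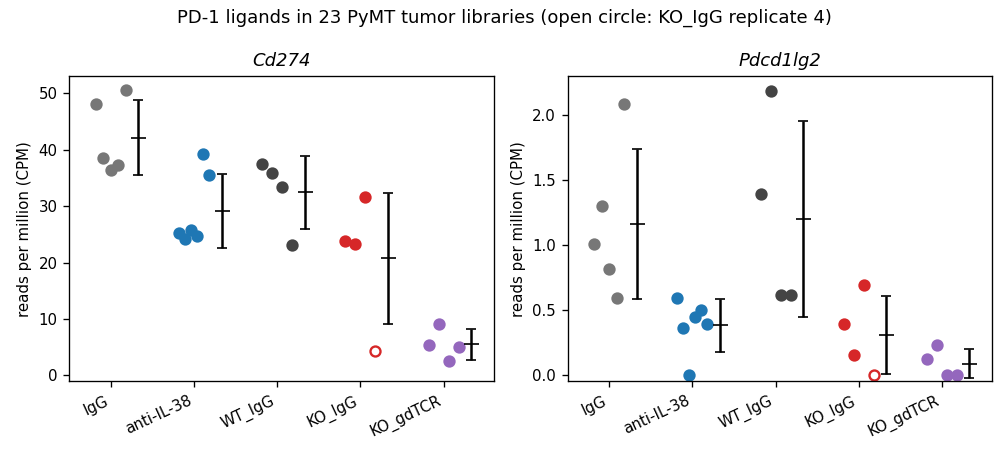
Level of Cd274 (left) and Pdcd1lg2 (right) in CPM (vertical axis) in each of the 23 libraries, by group (horizontal axis). Circles are libraries, the open circle is KO_IgG replicate 4, and the bar beside each group is the mean ± SD with all its libraries. Cd274 is at 2.55 to 9.11 CPM in KO_gdTCR and at 4.29 CPM in KO_IgG replicate 4, and Pdcd1lg2 is lower in anti-IL-38 and KO_IgG than in their controls.

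Pdcd1lg2 was measured with few reads, 0 to 28 per library and 187 in all. In IgG its level was 1.01, 1.30, 0.820, 0.598 and 2.08 CPM, and the anti-IL-38 libraries ranged from 0 to 0.596 CPM with a median of 0.423. The groups touched at their border, where anti-IL-38 replicate 1 and IgG replicate 4 each had 8 reads, or 7.47 and 7.37 normalized counts on the authors' scale, and the other 5 anti-IL-38 libraries lay below every IgG library. WT_IgG was at 1.39, 2.18, 0.614 and 0.615 CPM and KO_IgG at 0.396, 0.154, 0.693 and 0 CPM. KO_IgG replicate 3 reached into the WT_IgG range, and the other 3 lay below it. In KO_gdTCR it was at 0.125, 0.234, 0 and 0 CPM, that is, 0 to 2 reads in a library. A lower level of any gene in bulk tumor RNA may be fewer cells that express it or less RNA in each, and these cannot be told apart here.

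Inhibition of IL-38 by antibody was compared with isotype control to ask whether the ligands differ. Cd274 had a mean of 379 ± 75.5 normalized counts under anti-IL-38 (n = 6) and of 531 ± 81.7 with IgG (n = 5), which gave a log2 fold change of -0.49 (SE 0.15, 95% interval -0.83 to -0.16). On log2(normalized count + 1), which understates the change of low genes, limma gave an unadjusted p of 0.00671 and an adjusted p of 0.412 over 16002 genes. The two-sided exact permutation test gave p = 0.0195, where the smallest value possible is 0.00216. All 6 anti-IL-38 libraries were below the IgG median, and 5 were below every IgG library. For Pdcd1lg2 the means were 4.89 ± 2.58 and 14.7 ± 7.46 normalized counts and the log2 fold change was -1.55 (SE 0.59, interval -2.82 to -0.28), with an adjusted p of 0.426 in limma and an exact permutation p of 0.00649. Neither ligand passed the threshold of 0.05 on the adjusted p, which 0 of the 16002 genes did in limma (0.0%). edgeR also called 0 genes, with 1714 at an unadjusted p under 0.05, and DESeq2 called 75 (0.469%), no member among them. Unadjusted p-values under 0.05 were found for 2 of the 7 members tested and for 1682 genes, or 10.5%. Macrophage markers were lower beside them, at a summed 2020 to 2810 CPM over 8 genes under anti-IL-38 against 2377 to 3303 CPM with IgG, and other cell types moved too. Under anti-IL-38 neutrophil markers summed to 22.02 to 55.2 CPM against 47.1 to 166 CPM and dendritic cell markers to 233 to 355 CPM against 306 to 504 CPM. The dendritic cell sum is mostly Itgax, which macrophages also express. Of the 7 dendritic cell markers tested, 3 had positive and 4 negative estimates, with a median log2 fold change of -0.10. All 6 epithelial markers had positive estimates, with a median log2 fold change of 0.66, and T cell markers summed to 33.03 to 67.5 CPM against 15.3 to 46.6 CPM. The part of these cell types in the difference of either ligand was not tested.

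The knockout gave estimates of the same sign for both ligands that rested in part on 1 library. Cd274 was at 246 ± 138 normalized counts in KO_IgG and 380 ± 77.03 in WT_IgG (n = 4 each), for a log2 fold change of -0.91 (SE 0.50, adjusted p = 0.473 in limma, exact permutation p = 0.143 with a smallest possible value of 0.0286). Without KO_IgG replicate 4 the log2 fold change was -0.28 (SE 0.20, interval -0.72 to 0.16, adjusted p = 0.573 in limma, exact permutation p = 0.257). Pdcd1lg2 was at 3.70 ± 3.63 and 14.2 ± 9.15 normalized counts, with a log2 fold change of -1.93 (SE 0.78, adjusted p = 0.365 in limma, exact permutation p = 0.0857). Without replicate 4 it was -1.32 (SE 0.65, adjusted p = 0.390 in limma, exact permutation p = 0.171). The threshold was passed by 1 of 16563 genes (0.00604%) with all libraries and by 7 of 16225 (0.0431%) without replicate 4, no member among them. DESeq2 called 305 (1.84%) and edgeR 0 with all libraries, also no member, with 2219 genes at an unadjusted p under 0.05 in edgeR. Of the 7 members tested, Pdcd1lg2 alone had an unadjusted p under 0.05, as had 12.1% of all genes. Macrophage markers summed to 1635 to 2199 CPM in KO_IgG replicates 1 to 3, 873 CPM in replicate 4 and 2024 to 2638 CPM in WT_IgG.

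With the antibody and knockout arms pooled, Pdcd1lg2 had the smallest p among the members. Its mean was 4.41 ± 2.91 normalized counts in the 10 libraries with IL-38 inhibited against 14.5 ± 7.70 in the 9 controls, all 10 lay below the control median and 8 below every control. The log2 fold change was -1.69 (SE 0.46, interval -2.65 to -0.73), the limma p was 0.00140 before and 0.255 after adjustment, and the exact permutation p was 0.000325. Without KO_IgG replicate 4 the log2 fold change was -1.46 (SE 0.42, adjusted p = 0.280 in limma). Cd274 differed by -0.64 (SE 0.29, adjusted p = 0.455 in limma, exact permutation p = 0.0209), and by -0.37 (SE 0.15, adjusted p = 0.408, exact permutation p = 0.0329) without that library. limma called 0 of 16352 genes (0.0%), with 1725 at an unadjusted p under 0.05 (10.5%), edgeR called 1 and DESeq2 70 (0.428%), and none of them was a member. The main limma fit of the pooled libraries had no term for the experiment, and the exact permutations moved libraries between experiments. The values within each experiment are those of the antibody and knockout comparisons above. The antibody effect minus the knockout effect was 0.42 (SE 0.52) for Cd274 and 0.38 (SE 0.96) for Pdcd1lg2, and both turned negative without KO_IgG replicate 4, at -0.22 (SE 0.26) and -0.22 (SE 0.91). The difference passed the threshold for 1 of 16352 genes (0.00612%), which was not a member.

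γδ TCR blockade was compared with IgG within IL-38 KO tumors, in the table of 8 libraries that the authors scaled separately. Cd274 was at 55.7 ± 25.1 normalized counts in KO_gdTCR and 188 ± 106 in KO_IgG (n = 4 each), for a log2 fold change of -1.54 (SE 0.57, interval -2.81 to -0.27). With all libraries the adjusted p was 0.147 in limma, 0.146 in edgeR and 0.0196 in DESeq2, and the exact permutation p was 0.114. limma and edgeR called 0 of 16481 genes (0.0%), with 3570 genes at an unadjusted p under 0.05 in limma (21.7%) and 3078 in edgeR, and DESeq2 called 1033, 424 of them higher (2.57%) and 609 lower (3.7%). Of the 6 members tested, Cd274 alone had an unadjusted p under 0.05. Without KO_IgG replicate 4 the mean of KO_IgG was 237 ± 48.9 (n = 3), the groups did not overlap, and the log2 fold change was -2.16 (SE 0.34, interval -2.91 to -1.40, adjusted p = 0.00124 in limma, exact permutation p = 0.0286, the smallest possible). Cd274 was then the only member called, beside 2357 of 16480 genes (14.3%), of which 800 were lower (4.85%), and 10.8% of the genes tested lay wholly below KO_IgG. The 3 KO_IgG libraries kept and the 4 KO_gdTCR libraries also differed in pseudogene share, Gm42418 and depth. With all libraries, replicate 4 was the only KO_IgG library like KO_gdTCR in these properties. The treatment cannot be fully told apart from them in that fit either. Pdcd1lg2 was under the filter of a mean of 5 normalized counts here, at 0.899 ± 1.11 against 2.82 ± 2.80 (exact permutation p = 0.314). Without KO_IgG replicate 4 its KO_IgG mean was 3.76 ± 2.54 (exact permutation p = 0.114).

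Markers of myeloid cells moved with Cd274 in this comparison. The 8 macrophage markers summed to 671 to 1094 CPM in KO_gdTCR and 873 CPM in KO_IgG replicate 4, against 1635 to 2199 CPM in KO_IgG replicates 1 to 3, and the first of them, Adgre1, was at 16.4 to 34.8 CPM against 66.2 to 94.1. Of the macrophage markers, C1qa alone overlapped between KO_gdTCR and KO_IgG replicates 1 to 3, at 240 to 362 CPM against 332 to 418 CPM. The 8 dendritic cell markers summed to 28.5 to 38.9 CPM in KO_gdTCR against 195 to 257 CPM. That sum is mostly Itgax, which macrophages also express, and which was at 18.3 to 30.2 CPM in the 5 libraries that stood apart and 178 to 478 CPM in the other 18. Batf3 also lay apart, at 1.02 to 2.25 CPM against 3.64 to 12.1 CPM. The other 6 dendritic cell genes overlapped between those sets of libraries. Of these, Clec9a, Ccr7 and Cd209a had lower medians in the 5 libraries, at 0.580, 1.52 and 0.117 CPM against 2.41, 2.24 and 0.267 CPM, and Flt3, Zbtb46 and Xcr1 had higher ones, at 1.62, 7.47 and 0.797 CPM against 0.998, 5.79 and 0.721 CPM. Epithelial markers summed to 2577 to 3367 CPM in KO_gdTCR and 2583 to 2940 CPM in KO_IgG replicates 1 to 3. The part of the myeloid markers, of pseudogene reads or of depth in the Cd274 difference was not tested.

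**Figure D2:**
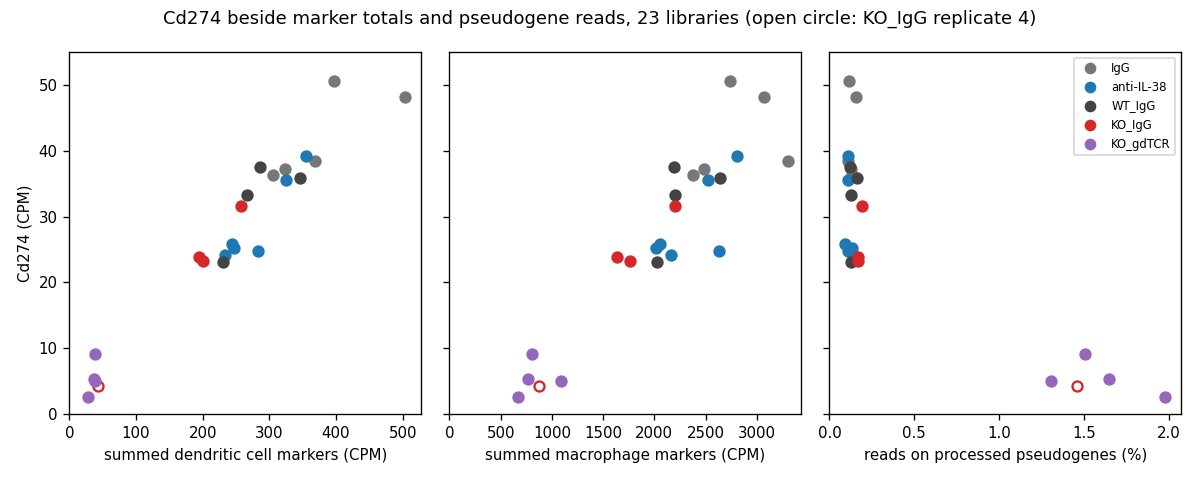
Level of Cd274 (vertical axis, CPM) in each of the 23 libraries against the summed level of 8 dendritic cell markers (left, CPM, mostly Itgax), the summed level of 8 macrophage markers (middle, CPM) and the share of reads on processed pseudogenes (right, %). Colors are the groups and the open circle is KO_IgG replicate 4. The 4 KO_gdTCR libraries and KO_IgG replicate 4 form a cluster at 2.55 to 9.11 CPM of Cd274, apart from the other 18 in each panel.

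Cd276 was higher in IL-38 KO tumors than in WT tumors in 3 of 4 libraries. Its level was 31.7, 61.1, 28.6 and 16.5 CPM in KO_IgG replicates 1 to 4 and 21.9, 23.01, 19.5 and 22.3 CPM in WT_IgG. Replicate 2 was the highest of all 23 libraries and replicate 4 was below every WT_IgG library. The means were 408 ± 217 and 254 ± 20.96 normalized counts and the log2 fold change was 0.54 (SE 0.30, adjusted p = 0.482 in limma). Without replicate 4 the KO_IgG mean was 477 ± 205 (n = 3) and the groups did not overlap, as for 7.43% of genes in that direction. The log2 fold change was then 0.83 (SE 0.23, interval 0.32 to 1.34), with an adjusted p of 0.161 in limma and 0.0226 in DESeq2 and an exact permutation p of 0.0286, the smallest possible. DESeq2 called 371 of 16225 genes higher there (2.29%). With all 4, leaving out KO_IgG replicate 2 brought the difference to 0.22. Skeletal muscle markers were beside it at a summed 80.7, 351, 221 and 23.9 CPM over 5 genes in KO_IgG replicates 1 to 4 and 16.8 to 75.1 CPM in WT_IgG, and their part was not tested.

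In the other groups Cd276 was at 10.8 to 20.8 CPM in IgG, at 12.9 to 21.7 CPM in anti-IL-38 with a median of 15.6, and at 21.6, 35.6, 12.6 and 24.6 CPM in KO_gdTCR. Anti-IL-38 and IgG differed by 0.02 (SE 0.19, interval -0.38 to 0.42) on the log2 scale. KO_gdTCR and KO_IgG differed by -0.31 (SE 0.37, adjusted p = 0.680 in limma), and by -0.59 (SE 0.32, adjusted p = 0.284) without KO_IgG replicate 4. The antibody effect minus the knockout effect was -0.52 (SE 0.36, adjusted p = 0.766 in limma) with all libraries and -0.81 (SE 0.31, adjusted p = 0.584) without that replicate.

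No difference between groups passed a threshold for Cd80 and Cd86, the ligands of CD28 and CTLA-4. Cd86 was at 5.06 to 7.77 CPM in IgG, 5.47 to 7.83 CPM in anti-IL-38, 4.13 to 7.20 CPM in WT_IgG, 5.23 to 6.40 CPM in KO_IgG and 3.64 to 6.89 CPM in KO_gdTCR. All 5 groups overlapped, and KO_IgG replicate 4, at 6.03 CPM, lay inside its group. Its log2 fold change was 0.17 (interval -0.22 to 0.55) under the antibody, 0.15 (-0.34 to 0.65) in the knockout and -0.14 (-0.72 to 0.43) under γδ TCR blockade. The latter values were 0.13 (-0.43 to 0.69) and -0.11 (-0.76 to 0.53) without KO_IgG replicate 4. Neighbors in the order of the Cd86 means differed by less than 1 SD throughout. Cd80 was measured with 2 to 44 reads per library. It was at 3.42, 0.577, 0.478, 1.49 and 0.968 CPM in IgG, where replicate 1 stood out, and at 0.234 to 1.42 CPM in all the other groups. Its log2 fold changes of -0.23, -0.12 and -0.34 in the 3 comparisons had 95% intervals from -1.57 to 1.03. The knockout and γδ TCR values were -0.03 (-1.26 to 1.19) and -0.41 (-1.67 to 0.85) without KO_IgG replicate 4, and neighbors in the order of means again differed by less than 1 SD.

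**Figure D3:**
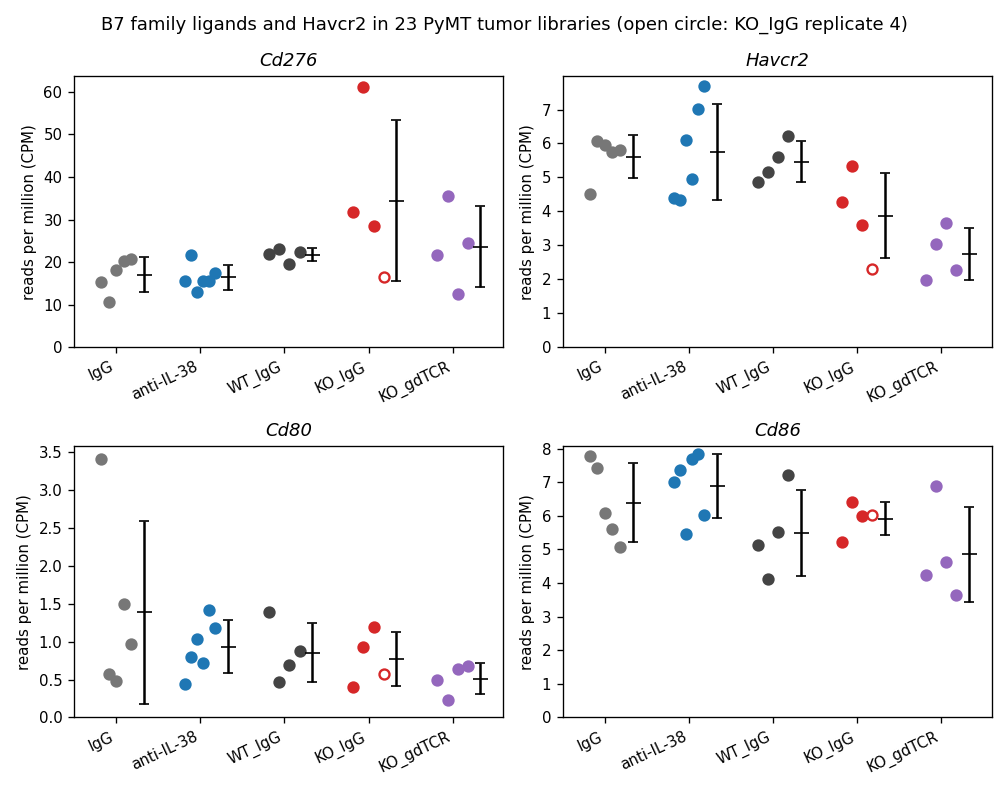
Levels of Cd276, Havcr2, Cd80 and Cd86 in CPM (vertical axes, from 0) in each library by group (horizontal axes). Circles are libraries, the open circle is KO_IgG replicate 4, and bars are the mean ± SD of all libraries of a group. Cd276 reaches 61.1 CPM in KO_IgG replicate 2, Havcr2 is at 1.998 to 3.67 CPM in KO_gdTCR and 2.32 CPM in KO_IgG replicate 4, and the groups overlap for Cd80 and Cd86.

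Havcr2, which encodes TIM-3, had 16 to 87 reads per library. Its level was 4.50, 6.06, 5.94, 5.76 and 5.81 CPM in IgG and 4.33 to 7.69 CPM in anti-IL-38, with a median of 5.53. It was at 4.87, 5.15, 5.61 and 6.23 CPM in WT_IgG, at 4.28, 5.32, 3.59 and 2.32 CPM in KO_IgG, and at 1.998, 3.04, 3.67 and 2.27 CPM in KO_gdTCR. Of the KO_IgG libraries only replicate 2 reached the WT_IgG range. The log2 fold change was 0.06 (SE 0.22) under the antibody and -0.52 (SE 0.28, adjusted p = 0.468 in limma, exact permutation p = 0.0571) in the knockout, or -0.31 (SE 0.25, adjusted p = 0.629) without replicate 4. Under γδ TCR blockade it was -0.29 (SE 0.35) with and -0.49 (SE 0.34, adjusted p = 0.414 in limma) without that replicate.

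The receptors of T cells were near or below what these libraries can measure. Pdcd1 had 155 reads in all 23 libraries, 0 to 17 in each, and its mean was 0.490 ± 0.403 CPM in IgG (n = 5), 0.582 ± 0.545 in anti-IL-38 (n = 6), 0.461 ± 0.343 in WT_IgG (n = 4), 0.689 ± 0.460 in KO_IgG (0.494 ± 0.295 without replicate 4) and 0.727 ± 0.759 in KO_gdTCR (n = 4). The SD was above the mean in KO_gdTCR, and neighbors in the order of means differed by less than 1 SD. The log2 fold changes were 0.08 (interval -1.81 to 1.98), 0.46 (-1.08 to 2.002) and -0.26 (-2.33 to 1.81) in the antibody, knockout and γδ TCR comparisons, so differences inside these limits were not excluded. Leaving out KO_IgG replicate 4, they were 0.10 (-1.48 to 1.67) in the knockout and 0.10 (-1.98 to 2.18) under γδ TCR blockade, where the sign turned. Lag3 had 46 reads and Ctla4 33 in all, at most 7 and 5 in a library, with 6 and 10 libraries at 0, and both were under the filter in every comparison. The mean of Lag3 was 0.058 to 0.213 CPM and that of Ctla4 0.043 to 0.184 CPM in the 5 groups. In KO_IgG they were 0.058 and 0.177 CPM with and 0.078 and 0.236 CPM without replicate 4. Exact permutation tests of these 2 genes gave p-values from 0.2 to 1 in the 4 comparisons. Tigit had 0 reads in all 23 libraries.

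Cd3d, the first of the T cell markers, was low as well. It was at 0 to 4.84 CPM in IgG, 0.592 to 3.52 CPM in anti-IL-38 and 2.42 to 4.74 CPM in WT_IgG. In KO_IgG it was at 0.617 to 3.02 CPM and in KO_gdTCR at 1.59 to 2.80 CPM. The 12 T cell markers all had reads in every group and summed to 15.3 to 46.6 CPM in IgG, 33.03 to 67.5 CPM in anti-IL-38, 39.6 to 96.8 CPM in WT_IgG, 47.5 to 69.4 CPM in KO_IgG and 38.7 to 112 CPM in KO_gdTCR. The 8 NK and cytotoxic markers summed to 1.71 to 19.1 CPM over all libraries, and Prf1 was at 0 in WT_IgG and KO_gdTCR. Of the 4 regulatory T cell markers, Ccr8 was at 0 in every group and Foxp3 was at 0 to 1.32 CPM.

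**Figure D4:**
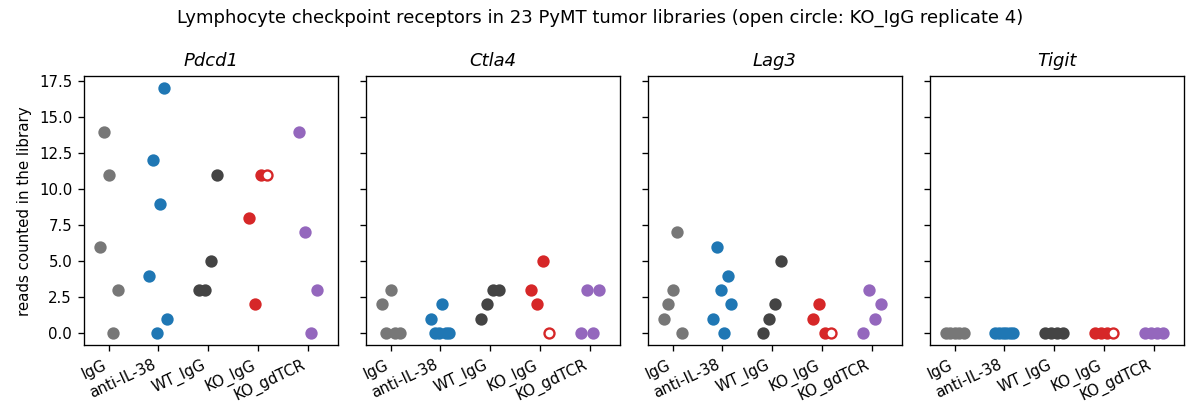
Reads counted on Pdcd1, Ctla4, Lag3 and Tigit (vertical axis, reads per library, not scaled for depth) in each library by group (horizontal axes). Circles are libraries and the open circle is KO_IgG replicate 4. Pdcd1 reaches 17 reads, Ctla4 5 and Lag3 7, and all 23 points of Tigit are at 0.

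Intervals differed in width between members. Cd274, Cd276, Cd86 and Havcr2 had standard errors of 0.15 to 0.22 in the antibody comparison, and Pdcd1lg2, Cd80 and Pdcd1 of 0.49 to 0.88. With KO_IgG replicate 4, the standard error of Cd274 was 0.50 in the knockout and 0.57 under γδ TCR blockade, and without it 0.20 and 0.34. In all, 63 exact permutation tests of members were run over all comparisons, with and without KO_IgG replicate 4, and their p-values are not adjusted.

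**Figure D5:**
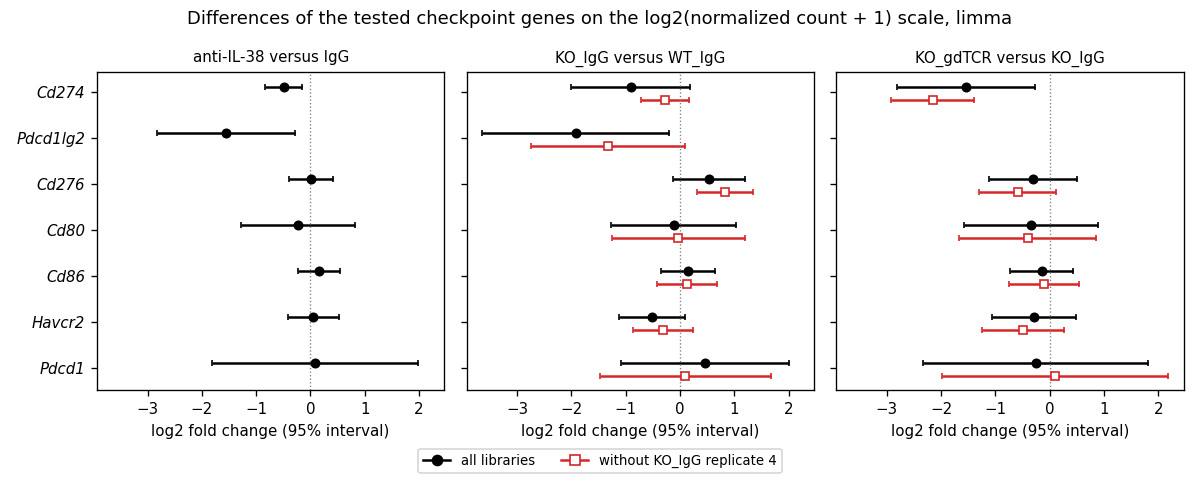
Log2 fold changes from limma on log2(normalized count + 1) (horizontal axis) with 95% intervals for the members past the filter (vertical axis) in the 3 comparisons. Filled circles use all libraries and open squares leave out KO_IgG replicate 4, which is not in the antibody comparison. Pdcd1lg2 is under the filter in KO_gdTCR versus KO_IgG, and the interval of Cd274 there lies below 0 with and without that library. In both fits of that comparison the treatment cannot be fully told apart from the pseudogene share, Gm42418 and depth of the libraries.

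The other genes of the checkpoint pathways were taken from a list of 36, of which 35 were in the files and 27 to 29 passed the filter. With all libraries limma and edgeR called none of them in any comparison, and DESeq2 called 1 of 28 in the knockout and 4 of 27 under γδ TCR blockade, all lower, beside 84 of 16563 (0.507%) and 3.7% of all genes. Under the antibody 17 of 29 were higher and 12 lower, with a median log2 fold change of 0.22 beside 0.0019 over all genes. The smallest p there belonged to Icos, a costimulatory receptor of T cells, at 17.2 ± 12.5 normalized counts under anti-IL-38 (n = 6) and 4.43 ± 5.80 with IgG (n = 5), and to Cd200, a ligand that restrains myeloid cells, at 551 ± 233 and 315 ± 62.4. Their adjusted p-values were 0.412 and 0.418 in limma. In the knockout 10 of 28 were higher and 18 lower, with a median of -0.12 (-0.03 without KO_IgG replicate 4), and the smallest p belonged to Lgals9, a galectin that binds TIM-3, at 1677 ± 186 against 2591 ± 401 (n = 4 each, adjusted p = 0.210 in limma), and to Cd96 (adjusted p = 0.295). With both arms pooled they were Cd244a, lower at -0.46 (SE 0.16), and Nectin2, a ligand of TIGIT and CD226, higher at 0.44 (SE 0.15), both at an adjusted p of 0.347 in limma.

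Without KO_IgG replicate 4, 5 of 28 of these genes were lower in KO_gdTCR and none higher, by limma, against 800 (4.85%) and 1557 (9.45%) of 16480 genes. In this comparison the treatment cannot be told apart from the pseudogene share, Gm42418 and depth of the libraries. Cd200r1, the receptor of CD200 on myeloid cells, was at 8.16 ± 6.21 normalized counts in KO_gdTCR (n = 4) against 208 ± 36.4 in KO_IgG (n = 3), a log2 fold change of -4.82 (SE 0.56, adjusted p = 0.000136 in limma). The log2 fold change was -1.44 for Vsir, the inhibitory protein VISTA of myeloid and T cells, -2.25 for Cd48, -2.05 for Cd28 and -1.22 for Nt5e, the adenosine-producing enzyme CD73. With replicate 4, Cd48 and Cd200r1 had the smallest p, each with an adjusted p of 0.0657 in limma. The KO_IgG mean was then 78.3 ± 35.6 for Cd48 and 163 ± 96.2 for Cd200r1 (n = 4).

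Interferon-γ response genes were set beside Cd274, which interferon-γ induces. The list also held the cytokine gene Ifng, its receptor genes Ifngr1 and Ifngr2, and the signaling kinase genes Jak1 and Jak2. Of the 17 genes, 16 were tested in each comparison. Under the antibody 15 were higher and 1 lower, with a median log2 fold change of 0.25, and in the knockout 2 were higher and 14 lower, with a median of -0.30 (-0.32 without KO_IgG replicate 4), while Cd274 was lower in both. limma and edgeR called none with all libraries, and DESeq2 called 3 lower in the knockout and 1 higher and 1 lower of 16 under γδ TCR blockade, beside 0.507% of genes lower in the former and 2.57% higher and 3.7% lower in the latter. Socs1, a feedback inhibitor of cytokine signaling, was at 36.1 ± 10.1 normalized counts under anti-IL-38 (n = 6) and 17.7 ± 11.8 with IgG (n = 5, adjusted p = 0.425 in limma), and the guanylate-binding protein genes Gbp3 and Gbp2 were at 279 ± 34.8 and 269 ± 22.0 in KO_IgG against 489 ± 50.3 and 428 ± 28.1 in WT_IgG (n = 4 each, adjusted p of 0.156 and 0.210 in limma). The antibody effect minus the knockout effect was positive for all 16, with a median of 0.57 beside 0.02 over all genes (0.50 beside 0.0060 without KO_IgG replicate 4), and 0 of them passed the threshold. Under γδ TCR blockade without KO_IgG replicate 4, 3 rose and 2 fell by limma, beside 9.45% of all genes higher and 4.85% lower. Their log2 fold changes were 0.85 for Irf1, 0.99 for Cxcl9, 0.83 for Jak2, -1.41 for Irf8 and -0.74 for Ifngr2. Irf1, Cxcl9 and Jak2 were thus higher, and Irf8 and Ifngr2 lower, where Cd274 was lower. With all libraries the adjusted p of Irf1 and Cxcl9 in limma was 0.0657 and 0.0936. Without that replicate, the treatment and the properties of the KO_gdTCR libraries cannot be told apart.

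Members were compared with each other by the deviations of their log2 values from the group means over the 19 libraries of the larger table. Of 8 planned relations 7 could be computed, since Tigit had no reads. Cd274 and Pdcd1lg2 had a Pearson r of 0.61 (permutation p = 0.0216, adjusted over the 7 relations 0.151) and a Spearman rho of 0.53 (p = 0.0256, adjusted 0.0895). Without the 2 libraries farthest in Cd274, which were KO_IgG replicates 3 and 4, r was 0.30, and within the experiments it was 0.17 over 11 and 0.85 over 8 libraries. It was 0.39 without KO_IgG replicate 4 alone. The size of r over the 19 libraries therefore depends on those libraries. Without KO_IgG replicate 4, rho was 0.49 (permutation p = 0.0613, adjusted 0.215). In the second experiment r was then 0.76 over 7 libraries. Pdcd1 and the T cell markers had r = 0.37 and rho = 0.55 (permutation p = 0.156 and 0.0207, adjusted 0.373 and 0.0895), with r of 0.58 without the 2 farthest libraries and of 0.29 and 0.64 within the experiments. Havcr2 and the macrophage markers had r = 0.50 and rho = 0.32 (permutation p = 0.160 and 0.239, adjusted 0.373 and 0.558), with r of 0.14 without the 2 farthest libraries, and r was 0.039 without KO_IgG replicate 4. For Cd274 with the interferon-γ response genes r was 0.0066 and rho -0.037 (permutation p = 0.964 and 0.870, adjusted 0.964 and 0.986), and for Cd80 with Cd86, Pdcd1 with Lag3, and Cd276 with fibroblast markers it lay between -0.14 and 0.16.

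Among 13609 genes, the ones whose deviations were most like those of Cd274 over these 19 libraries were Cd200r4, a member of the CD200 receptor family (r = 0.98), the gene model Gm49339 (r = 0.98) and Ccl9, a chemokine of myeloid cells (r = 0.98). Without KO_IgG replicate 4 they were Atp6v0d2, a proton pump subunit of macrophages and osteoclasts (r = 0.91), Alas1 (r = 0.91) and Cd200r4 (r = 0.90). The most like Cd276 were Hcst, Arhgef2 and Pip5k1c (r of 0.84, 0.83 and 0.81) with all and Ptges2, Arhgef2 and Cfap43 (r of 0.91, 0.80 and 0.79) without that library. For the other 5 members tested the highest r lay between 0.74 for Cd80 and 0.88 for Pdcd1lg2. These values are the largest of many and share the libraries, so they are descriptions without a test.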

How the data were processed

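The 23 libraries were made from PyMT tumor RNA with a 3′ mRNA kit (QuantSeq FWD) and read from the end of transcripts. Per the labels, the authors used STAR, HTSeq and DESeq2 with the GRCm39 build, and the study's methods name the BlueBee QuantSeq pipeline; versions of these tools are not given in the sources consulted. What the authors deposited is a signal in the form of normalized counts, read counts divided by 1 size factor per library, made by the authors separately for tables of 19 and 8 libraries, which share the 4 KO_IgG libraries with identical reads. Dividing by the value of 1 read gave whole numbers for all values within 0.0001%, except that in WT_IgG replicate 1 that value is too near 1 to tell reads from rounded values. CPM are these reads per 1000000 reads of the library.

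Names came from GENCODE M21 and RefSeq on GRCm38, another build, so no gene coordinates are given and promoters carry the table's build; 47224 of 47643 identifiers matched. A gene entered a comparison if its mean there was at least 5 normalized counts. limma 3.58.1 (R 4.3.3, eBayes with trend, two-sided) was run on log2 of the normalized count plus 1, and calls were made at an adjusted p (Benjamini-Hochberg) under 0.05. Single members were also compared with exact permutation tests (Python 3.11.15), and relations with 100000 permutations within groups. Alternatives were pseudocounts of 0.5 and 5, other filters, TMM, quantile normalization, edgeR 4.0.16, DESeq2 1.42.0, an experiment term, a replicate block and the omission of single libraries. edgeR, DESeq2, TMM and quantile fits without KO_IgG replicate 4, and the relations of Cd274 with marker lists, were chosen after seeing the data. The fits were tested on simulated counts.

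The members and lists were chosen with earlier results of these data known. Named were the 10 members, and up to 6 genes per pathway list past the threshold by smallest p or otherwise the 2 with the smallest p. The 3 genes of mean 20 or more most like a member and the first gene of marker lists were named too. The dendritic cell genes, C1qa, Prf1 and Ccr8 were named after their values were seen. Libraries of a group differed beyond sampling noise (chi-square per degree of freedom 17.1 to 138). Reads carry no molecular identifiers, so limits cover counting error only.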

Additional observations from a re-analysis of the deposited data

Results flagged for a closer look

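Havcr2 in IgG replicate 1, at 4.50 CPM, lay far below the other 4 IgG libraries, which were at 5.76 to 6.06 CPM, by Dixon's test for a single distant value at the 95% level. It was the only such value in 45 combinations of a member and a group with any reads, and chance gives about 1 in 20. Without that library Havcr2 differed between anti-IL-38 and IgG by -0.03 in place of 0.06 on the log2 scale, and no call changed.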

How the results depend on the processing

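With all libraries, limma called no member in any comparison under the pseudocounts, filters, TMM, quantile normalization, the replicate block, the experiment as a term, or leaving out any library other than KO_IgG replicate 4, and edgeR called none. The exceptions were Cd274 under γδ TCR blockade, called with all libraries by DESeq2 (1 member) and without KO_IgG replicate 4 by limma, edgeR, DESeq2, TMM and quantile fits (1 member each, log2 fold changes of -2.22 to -2.07), and Cd276 in the knockout without that library by DESeq2 (1 member). Cd274 and Pdcd1lg2 stayed negative in every setting of the antibody, knockout and pooled comparisons. Over those settings the adjusted p was 0.199 to 0.589 and 0.259 to 0.618 for the antibody and 0.287 to 0.731 and 0.320 to 0.682 for the knockout, and for the pooled libraries it was 0.159 to 0.616 and 0.0620 to 0.459.

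Numbers of genes called were 75 with DESeq2 and 1 with the replicate block for the antibody, and 0 to 6 leaving out 1 library. For the knockout they were 0 with edgeR, 305 with DESeq2, 0 with the replicate block and 0 to 7 leaving out 1 library (7 without WT_IgG replicate 3 or KO_IgG replicate 4). Without KO_IgG replicate 4 edgeR called 10, DESeq2 485, TMM 15 and quantile 16. For γδ TCR blockade DESeq2 called 1033, and leaving out 1 library gave 0 to 2357 genes and 0 to 1 member; without KO_IgG replicate 4 edgeR called 2379, DESeq2 2875, TMM 2367 and quantile 2320. For the pooled arms edgeR called 1, DESeq2 70, the experiment term 1, leaving out 1 library 0 to 23 (23 without IgG replicate 3), and DESeq2 without KO_IgG replicate 4 called 83. The difference of the effects gave 0 with edgeR and 0 to 2 leaving out 1 library. The causes were not tested. The labels give same-numbered libraries no link beyond the number. Their deviations from group means correlated at -0.17 to 0.07, which cannot show whether they were handled together, and the replicate block called no member.

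No called difference reversed. Under the antibody Pdcd1 was at -0.086 with quantile normalization and -0.51 to 0.58 leaving out 1 library, Havcr2 at -0.024 with quantile, -0.029 with the block and -0.033 to 0.14, Cd80 at -0.48 to 0.16, and Cd276 at -0.027 with quantile and -0.13 to 0.11. In the knockout Pdcd1 was at -0.021 with quantile and Cd80 at 0.011 with edgeR and 0.016 with DESeq2, each without KO_IgG replicate 4, and Cd80 ranged from -0.34 to 0.13 leaving out 1 library. Under γδ TCR blockade Pdcd1 was at 0.25 with edgeR and with DESeq2, at 0.71, 0.74 and 0.076 with edgeR, DESeq2 and TMM without KO_IgG replicate 4, and at -0.89 to 0.54 leaving out 1 library, over which Cd86 ranged from -0.30 to 0.0068 and Cd276 from -0.59 to 0.0051. For the pooled arms Pdcd1 ranged from -0.075 to 0.53 and Cd80 from -0.28 to 0.059, and for the difference of the effects Cd274 ranged from -0.22 to 0.73, Pdcd1lg2 from -0.22 to 0.85, Pdcd1 from -0.97 to 0.12, Cd80 from -0.37 to 0.27 and Cd86 from -0.12 to 0.12. The relation of Cd274 with the interferon-γ genes was -0.054 without KO_IgG replicate 4. Few reads limit Pdcd1lg2, Cd80, Pdcd1, Ctla4, Lag3 and Tigit.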

Other observations

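Cd274 was set beside each of the 12 marker lists by deviations from group means, a comparison chosen after the values were seen. Over the 19 libraries of the larger table it had Pearson r = 0.89 with the 8 macrophage markers (permutation p = 0.00209, adjusted over the 12 lists 0.0223) and Spearman rho = 0.71 (p = 0.00415, adjusted 0.0249). Without the 2 farthest libraries, KO_IgG replicates 3 and 4, r was 0.59, within the experiments it was 0.52 over 11 and 0.96 over 8 libraries, and without KO_IgG replicate 4 it was 0.60 (permutation p = 0.0196, adjusted 0.0783), with rho = 0.67 (adjusted 0.0218). Cd274 went against the 6 fibroblast markers, at rho = -0.63 (adjusted permutation p = 0.0118) with all and -0.71 (adjusted 0.0218) without that library. With the 5 endothelial markers rho was -0.31 (adjusted permutation p = 0.280) and r was -0.046 with all 19 libraries. Within the experiments r was then -0.82 over 11 and 0.48 over 8 libraries. Without KO_IgG replicate 4, rho was -0.84 (adjusted permutation p = 0.00072) and r was -0.75. In the second experiment r turned to -0.81 over 7 libraries, so its sign there depends on that library. These relations describe the libraries only.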
